A study of Mus musculus with 6 samples.

Results

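The genes described here are 50 genes of cell division, 24 that act in S phase and 26 that act in mitosis, taken by symbol from a table of 24628 mouse genes. All 50 symbols were found in the table. They were read in 6 RNA-seq libraries of lymphocytes that the series text calls ILC1s, group 1 innate lymphoid cells, which make interferon-γ and resemble natural killer cells. The 3 cKO libraries (replicates 1 to 3) are titled only treatment; the series text sets conditional knockout against wild-type cells, and the column names of these libraries join Ncr1 to Rora, so they were taken as the knockout by elimination. The other 3 libraries are titled Rorafl/fl and are called floxed; they carry floxed alleles of Rora, the gene of the nuclear receptor RORα. Neither the driver of the deletion, the part of Rora removed, the sort gate, the age and sex of the mice nor the number of animals is given in the labels. The labels do not say whether replicates are separate animals, and each p-value therefore reflects the spread between these samples only, which may be technical.

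Before S phase, the MCM2-7 helicase is loaded on origins by CDC6 and CDT1; CDC45 and the GINS complex then turn it on, the clamp PCNA holds the polymerases on DNA, and ribonucleotide reductase and thymidylate synthase supply nucleotides. Cyclin E starts this phase. Mitosis is driven by cyclin B with CDK1 and by the Aurora and PLK1 kinases, and ends when the anaphase-promoting complex with CDC20 marks cyclin B and securin for destruction. E2F factors drive many S phase genes, and B-MYB and FOXM1 switch on many mitotic genes later. The DREAM complex holds cell cycle genes off in resting cells, many mitotic genes among them. Mki67 encodes Ki-67, a coat protein of mitotic chromosomes that is used as a marker of cycling cells and is lost from cells that leave the cycle.

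The libraries held 21111333 to 22440170 assigned reads in cKO and 20152146 to 21711523 in floxed samples. In genes with 1 to 20 reads, 77.4 to 80.4% of the read numbers were even, and reads are not taken here as independent molecules. Rora was at 5.69, 6.29 and 6.24 RPKM (assigned reads scaled to gene length and to library depth) in cKO and at 6.92, 7.41 and 7.91 RPKM in floxed libraries; values for the whole gene do not check a deletion of part of it. All 10 markers of group 1 ILCs were detected, with a sum of 3170 to 3252 RPM (the same scaling without gene length) in cKO and 3348 to 3403 RPM in floxed libraries. By limma's adjusted p, 2 of the 10 were higher in cKO (Gzma and Eomes) and 2 lower (Ncr1 and Gzmb), beside 0.652% and 0.668% of all tested genes. Whether these markers tell ILC1s from natural killer cells was not tested, and the name ILC1 is that of the series text. Of other cell types, 2 of 7 B cell and 7 of 10 T cell markers were high enough to be tested, at means of up to 8.21 RPKM and 27.7 RPKM, while Cd79a, Ms4a1, Pax5 and Cd8a stayed under 1 RPKM in each library. The cKO libraries also had less Xist (9.43 ± 0.394 RPKM against 31.9 ± 3.16 RPKM in floxed, SD, n = 3 each), more of the Y-linked Ddx3y (20.8 ± 0.438 RPKM against 10.4 ± 0.498 RPKM in floxed) and more of 21 immediate-early genes (9044 to 9126 RPM against 5376 to 5399 RPM in floxed). The part of these differences in the results was not tested.

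The tested S phase genes had a median level of 7.31 RPKM and the tested mitotic genes one of 3.34 RPKM over all 6 libraries. On the RPKM scale, which is per gene length and lets genes be compared, Pcna led with 59.6 ± 3.65 RPKM in cKO and 56.5 ± 1.87 RPKM in floxed libraries (SD, n = 3 each, as in all means below), and Slbp, which encodes the stem-loop binding protein of histone mRNAs, followed with 45.9 ± 1.74 RPKM in cKO and 46.1 ± 2.19 RPKM in floxed. The 6 MCM genes lay between 13.6 and 26.7 RPKM in cKO and between 14.6 and 31.5 RPKM in floxed libraries. Of the mitotic genes, 2 were above 10 RPKM on average, Mki67 and Top2a, which encodes the topoisomerase that untangles sister chromatids. The lowest library of Mki67 (18.7 RPKM) lay above the highest of Top2a (12.4 RPKM), and every other mitotic gene averaged under 10 RPKM.

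**Figure D1:**
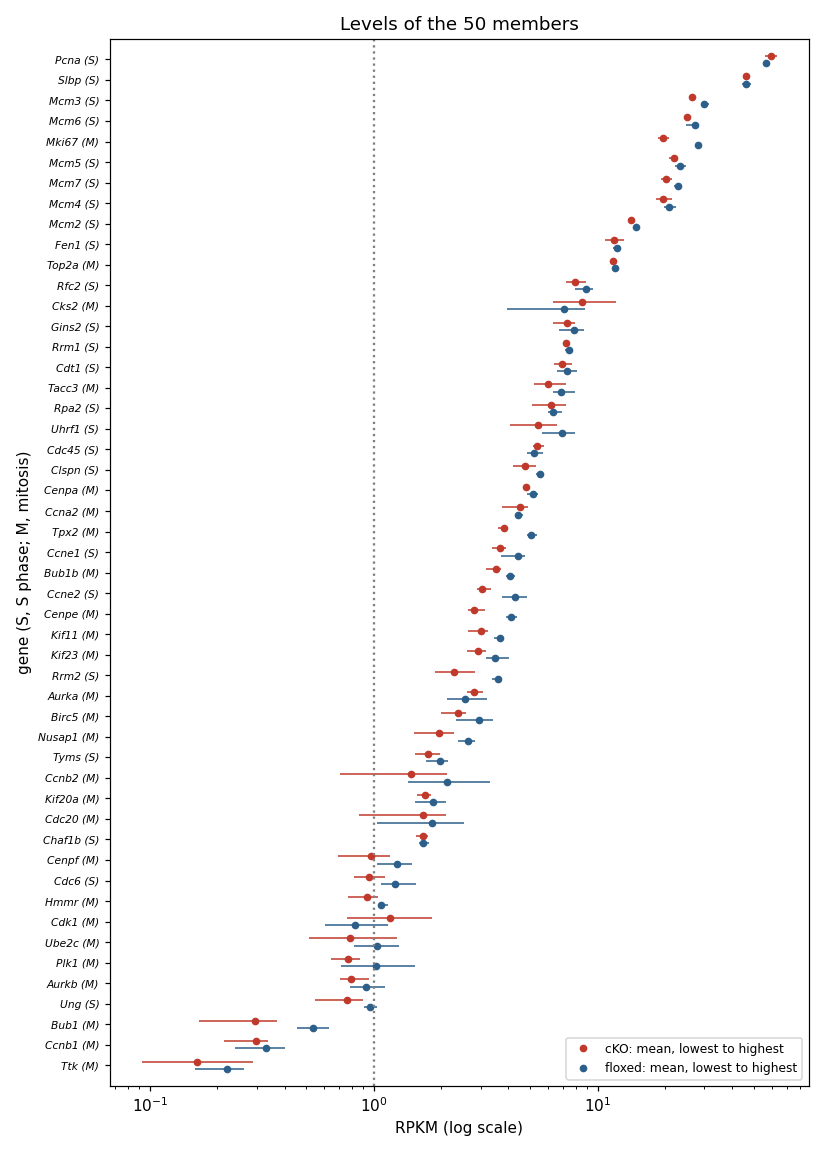
RPKM of the 50 genes on a log axis, ordered by the mean over all 6 libraries, with cKO in red above floxed in blue; points are means of 3 libraries, lines run from the lowest to the highest library, and the dotted line marks 1 RPKM. Mki67 is the fifth of the 50 genes, Pcna leads at 59.6 RPKM in cKO and 56.5 RPKM in floxed libraries, and Cdk1, Plk1, Bub1, Ccnb1 and Ttk are among the lowest.

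Levels of the mitotic cyclins, kinases and their partners ran from Cks2 and Ccna2, at 7.80 and 4.44 RPKM over all 6 libraries, down to Ttk. Cdk1, the mitotic kinase, had 0.763, 0.962 and 1.82 RPKM in cKO and 1.16, 0.706 and 0.604 RPKM in floxed libraries. Ccnb1, which encodes its partner cyclin B1, had 0.338, 0.337 and 0.215 RPKM in cKO and 0.240, 0.400 and 0.351 RPKM in floxed libraries, from 20 to 34 reads per library. In both genes the groups overlapped. Plk1, a kinase of mitotic entry, averaged 0.767 ± 0.113 RPKM in cKO and 1.03 ± 0.442 RPKM in floxed libraries, Aurkb, the kinase of the chromosomal passenger complex, 0.796 ± 0.137 RPKM in cKO and 0.929 ± 0.177 RPKM in floxed, and Ube2c, the ubiquitin-conjugating enzyme of the anaphase-promoting complex, 0.782 ± 0.427 RPKM in cKO and 1.04 ± 0.243 RPKM in floxed. Ttk, a kinase of the spindle checkpoint, was lowest of all 50 with 0.163 ± 0.109 RPKM in cKO and 0.222 ± 0.0551 RPKM in floxed libraries.

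A gene was tested where 3 or more libraries had 1 RPKM or more, which 42 of the 50 genes did, 23 of S phase and 19 of mitosis. The other 8 were Ung of S phase, which encodes uracil-DNA glycosylase, and Cdk1, Ccnb1, Plk1, Aurkb, Ube2c, Bub1 and Ttk of mitosis. Of these 8, Ung (0.831, 0.546 and 0.895 RPKM in cKO, against 0.910, 0.953 and 1.03 RPKM in floxed) and Bub1, a spindle checkpoint kinase gene (0.348, 0.370 and 0.167 RPKM in cKO, against 0.635, 0.456 and 0.510 RPKM in floxed), had all cKO values below all floxed values, and the other 6 overlapped. Ung had 63 to 122 reads per library and Bub1 16 to 60. How often genes under the filter separate in this way was not computed, so no result is drawn from these 2 genes. Cdc6 and Hmmr entered through all 3 floxed libraries and 1 cKO library each, and Cenpf, Ccnb2 and Cdc20 through 2 cKO and 3 floxed libraries each.

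The question of the comparison was whether cell cycle RNA differed between cKO and floxed ILC1s, phase by phase and beside Mki67. By limma's adjusted p, 1 of the 42 tested genes was called lower in the cKO libraries, and it was Mki67. Fell and rose stand for such calls here and below. By sign alone, 36 of the 42 lay below 0 in log2 difference and 6 above, beside 57.3% of all tested genes below 0. Rrm2 (63.8%) and Cenpe (68.3%) had cKO shares of floxed close to that of Mki67 (69.7%), with larger SEs (0.13 and 0.10 against 0.06). Mki67 had 20.8, 18.7 and 19.5 RPKM in cKO and 27.4, 29.3 and 27.9 RPKM in floxed libraries, from 3967 to 6078 reads per library. The groups lay well apart, with means of 19.7 ± 1.04 RPKM in cKO and 28.2 ± 0.954 RPKM in floxed libraries, so that cKO stood at 69.7% of floxed. On the log2(RPKM + 1) scale the difference, cKO minus floxed, was -0.50 (SE 0.06, 95% interval -0.64 to -0.36). The adjusted p of limma, by Benjamini-Hochberg over all 12731 tested genes, was 0.0141. Among all tested genes, 0.668% of genes fell (85 genes) and 0.652% rose (83 genes), and leaving out any 1 library left 27 to 39 lower and 33 to 50 higher genes. Without adjustment, p was under 0.05 and the value lower for 8.6% and higher for 5.55%.

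The call of Mki67 was lost without cKO replicate 2 (adjusted p = 0.0621), cKO replicate 3 (0.0729), floxed replicate 2 (0.0609) or floxed replicate 3 (0.0707), while the log2 difference stayed between -0.54 and -0.47 over these and the other 2 omissions. With limma voom on the recovered reads it was -0.52 (adjusted p = 2.21e-07). Of 15 alternatives, whose adjusted p ran between 2.21e-07 and 0.0876, 9 kept the call. In these bulk samples fewer cells with the RNA and less of it per cell cannot be told apart. Mki67 lies on chromosome 7 at 135689784 to 135716361 on the minus strand (mm10), is 10061 bases long in the table and shares no exon bases with another gene there.

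Some markers of other cells were also lower in cKO, and others were not. The 7 B cell genes summed to 35.0 to 41.4 RPM in cKO and 59.7 to 62.1 RPM in floxed libraries, with Cd22 the 1 of 2 tested that fell. The 10 T cell genes summed to 228 to 260 RPM in cKO and 257 to 272 RPM in floxed libraries, overlapping groups, and 1 of 7 tested, Cd3e, fell. Of the 7 dendritic cell genes, 4 were tested and 2 fell, Cd74 and H2-Ab1, with sums of 415 to 438 RPM in cKO and 420 to 457 RPM in floxed libraries. The 7 myeloid genes gave 112 to 116 RPM in cKO and 112 to 118 RPM in floxed libraries with 0 of 4 tested called, the 6 plasma cell genes gave 80.1 to 91.8 RPM in cKO and 98.7 to 107 RPM in floxed with 0 of 2 called, and the 5 erythroid genes found gave 1.71 to 1.96 RPM in cKO and 2.13 to 4.81 RPM in floxed with 0 of 2 called. Without adjustment, the B cell list had 0 higher and 2 lower genes with p under 0.05, the T cell list 0 and 2 and the dendritic cell list 1 and 2, while voom called 0 and 1, 0 and 2, and 1 and 2 in these lists. Each of the other 3 lists had 0 higher and 1 lower gene with p under 0.05, while voom called 0 and 0 in the myeloid, 0 and 1 in the plasma cell and 0 and 0 in the erythroid list. Itgax of the dendritic cell and Itgam of the myeloid list had all cKO values above all floxed values, beside 7.61% of all tested genes. Cd79b, Cd22, Xbp1, Cd8b1, Cd3e, Cd68, H2-Ab1 and Cd74 had them below, beside 12.7% of all tested genes. Over all tested genes, limma called 0.652% higher and 0.668% lower, and voom 1.78% and 2.41%. Without adjustment, p was under 0.05 for 5.55% with a higher and 8.6% with a lower value. Jchain, a defining plasma cell gene, was at 0 in all cKO and in 2 floxed libraries. Their part in the Mki67 difference was not tested.

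Top2a did not follow Mki67. It had 11.7, 11.8 and 11.8 RPKM in cKO and 12.0, 11.6 and 12.4 RPKM in floxed libraries, so the groups overlapped, and its log2 difference was -0.02 (95% interval -0.16 to 0.11, adjusted p = 0.895). With another scaling the sign of so small a value turned, to 0.0039 with median-of-ratios factors and 0.0027 with quantile normalization. The Mki67 to Top2a ratio of RPKM was 1.78, 1.58 and 1.66 in cKO and 2.28, 2.53 and 2.26 in floxed libraries. All 3 cKO ratios lay below all 3 floxed ratios, with a difference of -0.50 in the mean log2 ratio, and an exact permutation test, two-sided over 20 assignments, gave p = 0.1, the smallest that 3 against 3 libraries can reach. Top2a lies on chromosome 11 at 98992943 to 99024189 on the minus strand.

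**Figure D2:**
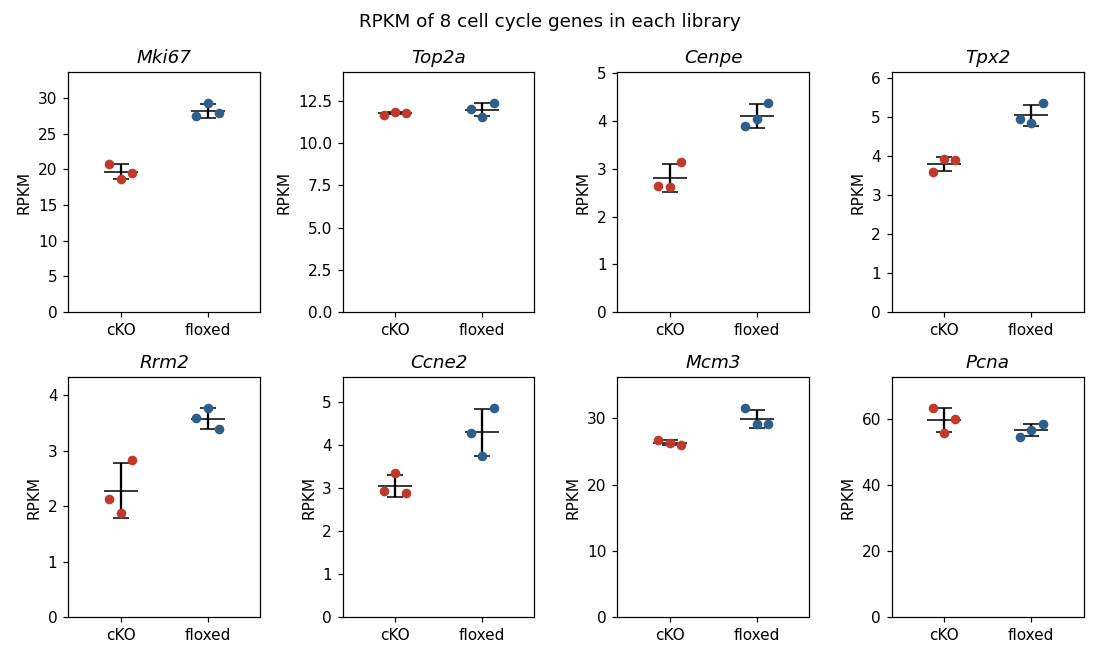
RPKM in each of the 3 cKO (red, left) and 3 floxed (blue, right) libraries for 8 genes, each panel with its own axis from 0; bars are the mean ± SD. For Mki67 the cKO libraries sit at 18.7 to 20.8 RPKM, below the floxed ones at 27.4 to 29.3 RPKM, whereas for Top2a and Pcna the groups overlap.

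The promoters of Mki67 and Top2a are shown because both hold letters typical of mitotic promoters, with that of Mcm3 beside them for S phase. They are RefSeq promoters (GRCm38.p6), 250 bases before to 50 bases after the annotated start, read 5′ to 3′ on the strand of the gene. Capitals mark CHR letters of mitotic genes (TTTGAA or TTCGAA), the CCAAT box (CCAAT) and E2F letters (TTTCCCGC, TTTGGCGC, TTTGCCGC or TTTCGCGC), each on either strand.

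Mki67, chr7:135716330-135716629, minus strand: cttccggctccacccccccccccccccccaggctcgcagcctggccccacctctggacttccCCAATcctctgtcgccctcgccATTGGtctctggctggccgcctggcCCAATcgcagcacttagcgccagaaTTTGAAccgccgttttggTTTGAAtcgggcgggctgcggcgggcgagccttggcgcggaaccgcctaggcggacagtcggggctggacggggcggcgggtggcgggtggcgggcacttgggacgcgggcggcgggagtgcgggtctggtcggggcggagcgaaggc
Top2a, chr11:99024140-99024439, minus strand: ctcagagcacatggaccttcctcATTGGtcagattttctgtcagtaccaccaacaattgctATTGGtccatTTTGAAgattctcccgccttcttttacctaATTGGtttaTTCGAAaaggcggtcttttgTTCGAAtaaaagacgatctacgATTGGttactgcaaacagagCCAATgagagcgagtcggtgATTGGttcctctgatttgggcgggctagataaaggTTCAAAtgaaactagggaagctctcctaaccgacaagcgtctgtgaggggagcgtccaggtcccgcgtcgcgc
Mcm3, chr1:20820263-20820562, minus strand: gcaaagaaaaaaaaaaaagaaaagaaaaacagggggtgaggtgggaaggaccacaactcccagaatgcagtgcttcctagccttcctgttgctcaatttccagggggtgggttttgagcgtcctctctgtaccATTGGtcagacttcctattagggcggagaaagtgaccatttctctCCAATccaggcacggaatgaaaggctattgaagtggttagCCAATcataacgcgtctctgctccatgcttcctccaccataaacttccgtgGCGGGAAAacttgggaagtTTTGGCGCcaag

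Mki67 had 2 CHR matches, at -116 and -98 from the start, and 3 CCAAT boxes. Top2a had 4 CHR matches and 6 CCAAT boxes, and Mcm3 had 0 CHR matches, 2 E2F matches and 3 CCAAT boxes. Some of these letters overlap in other promoters (the E2F matches of Mcm6, for example). Promoters were found for 20 of the 24 S phase and 22 of the 26 mitotic genes. CHR letters were in 16 of the 22 mitotic genes (72.7%) and 4 of the 20 S phase genes (20%), beside 21.7% of all 27025 genes with a promoter of this length. E2F letters were in 1 mitotic gene (4.55%) and 8 S phase genes (40.0%), beside 2.60% of all genes, and CCAAT in 19 (86.4%) and 13 (65.0%), beside 41.1%. A match is a run of letters in this window and no measure of binding.

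The genes of chromosomes and centromeres other than Mki67 and Top2a all lay below 0 in log2 difference and limma called 0 of these 4, of which 1 had p under 0.05 without adjustment. Of these 4, Cenpf reached the filter level in all floxed libraries but only in a part of the cKO libraries. Over all tested genes, 57.3% lay below 0, and 8.6% were lower with p under 0.05 without adjustment. Cenpe, which encodes the kinetochore motor CENP-E, had 2.64, 2.63 and 3.14 RPKM in cKO and 3.89, 4.05 and 4.38 RPKM in floxed libraries. The groups did not overlap and cKO stood at 68.3% of floxed. Its log2 difference was -0.43 (95% interval -0.67 to -0.19; limma adjusted p = 0.135), and voom called it lower (log2 difference -0.55, adjusted p = 0.00403), the 1 of 14 alternatives in which it passed. Cenpa, the histone H3 variant of centromeres, averaged 4.78 ± 0.0868 RPKM in cKO and 5.17 ± 0.302 RPKM in floxed libraries. Cenpf, a kinetochore and nuclear matrix protein gene, averaged 0.974 ± 0.253 RPKM in cKO and 1.27 ± 0.227 RPKM in floxed, and Birc5, which encodes survivin of the passenger complex, 2.37 ± 0.332 RPKM in cKO and 2.94 ± 0.547 RPKM in floxed.

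Among genes of the spindle and of cytokinesis, 7 of 7 had a negative log2 difference, from -0.33 to -0.07, beside 57.3% of all tested genes. Of these 7, 0 passed, and Hmmr entered the test through all floxed libraries but only a part of the cKO libraries. Without adjustment, p was under 0.05 for 0 genes with a positive and 1 with a negative difference, beside 5.55% and 8.6% of all tested genes. In this list voom called 0, beside 1.78% higher and 2.41% lower over all tested genes. Tpx2, which targets Aurora A to the spindle, had 3.59, 3.92 and 3.90 RPKM in cKO and 4.96, 4.84 and 5.36 RPKM in floxed libraries, apart from each other (log2 difference -0.33, 95% interval -0.53 to -0.13, limma adjusted p = 0.153). Nusap1, a microtubule bundler of the spindle, had 2.28, 2.08 and 1.52 RPKM in cKO and 2.84, 2.67 and 2.39 RPKM in floxed libraries (limma adjusted p = 0.390). Kif11, the motor that pushes spindle poles apart, had 3.19, 3.22 and 2.64 RPKM in cKO and 3.44, 3.74 and 3.81 RPKM in floxed libraries (limma adjusted p = 0.413). In both genes the groups lay just apart. Over all tested genes, 12.7% had all cKO values below all floxed values. Kif23, Kif20a (motors of the midzone and cytokinesis), Hmmr and Tacc3 (spindle assembly) had overlapping groups, at 83.4, 91.8, 86.5 and 86.9% of floxed in cKO. Cdc23 lies opposite 33.2% of the exon bases of Kif20a, and whether counting used strand is not known here.

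Mitotic cyclins, kinases and the anaphase-promoting complex gave no call and less even values. Bub1b, which encodes the checkpoint protein BUBR1, had 3.71, 3.66 and 3.18 RPKM in cKO and 4.05, 4.27 and 3.88 RPKM in floxed libraries, without overlap (log2 difference -0.17, limma adjusted p = 0.496). Aurka, the Aurora A kinase, averaged 2.80 ± 0.253 RPKM in cKO and 2.56 ± 0.562 RPKM in floxed libraries. Ccna2, which encodes cyclin A2 of S and G2 phase, averaged 4.48 ± 0.659 RPKM in cKO and 4.40 ± 0.198 RPKM in floxed. Ccnb2 (0.711 to 2.13 RPKM in cKO, 1.43 to 3.32 RPKM in floxed), Cdc20 (0.862 to 2.11 RPKM in cKO, 1.04 to 2.52 RPKM in floxed) and the short Cks2 (6.30 to 12.0 RPKM in cKO, 3.94 to 8.75 RPKM in floxed) varied widely between libraries of 1 group. Their 95% intervals reached from -1.06 to 0.39, from -0.75 to 0.59 and from -0.50 to 1.03 in log2, on 24 to 110, 34 to 95 and 55 to 187 reads per library. A difference the size of that in Mki67 was therefore not detectable in any of these genes at this depth.

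Taking the 26 mitotic genes by count, 19 were tested, 0 rose, 1 fell and 18 did not pass. Without adjustment, p was under 0.05 for 0 genes with a positive and 3 with a negative difference, beside 5.55% and 8.6% of all tested genes, while voom called 0 higher and 2 lower (Mki67 and Cenpe), beside 1.78% higher and 2.41% lower over all genes. The median log2 difference of the 19 was -0.18, beside -0.03 over all tested genes. Only Mki67, Top2a, Cks2 and Tacc3 of these had at least 5 RPKM in 3 libraries. Their median was -0.10, beside -0.02 over all genes at that filter. The cKO values lay below all floxed values in 6 of the 19 (31.6%), beside 12.7% of all tested genes, and above in 0, beside 7.61%.

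None of the S phase genes passed in either direction. The 2 with the lowest cKO share supply nucleotides or start the phase. Rrm2, the regulated subunit of ribonucleotide reductase, had 2.14, 1.88 and 2.83 RPKM in cKO and 3.59, 3.76 and 3.39 RPKM in floxed libraries. The groups did not overlap and cKO stood at 63.8% of floxed (log2 difference -0.49, 95% interval -0.80 to -0.18, limma adjusted p = 0.174). Ccne2, which encodes cyclin E2, had 2.93, 3.33 and 2.88 RPKM in cKO and 4.27, 3.75 and 4.84 RPKM in floxed libraries, also apart (log2 difference -0.38, 95% interval -0.65 to -0.12, limma adjusted p = 0.200). Ints8 lies opposite 17.4% of the exon bases of Ccne2, and whether counting used strand is not known here.

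Their partners were closer between groups. Rrm1, the large subunit of the same reductase, had 7.22, 7.24 and 7.12 RPKM in cKO and 7.49, 7.60 and 7.16 RPKM in floxed libraries, with overlap and a 95% interval of -0.19 to 0.12 in log2. Tyms, thymidylate synthase, averaged 1.74 ± 0.230 RPKM in cKO and 1.97 ± 0.233 RPKM in floxed libraries. Ccne1, which encodes cyclin E1, averaged 3.66 ± 0.255 RPKM in cKO and 4.39 ± 0.600 RPKM in floxed libraries.

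All 8 genes of origin licensing had a negative log2 difference, between -0.20 and -0.07, beside 57.3% of all tested genes. Of these 8, 0 passed, and Cdc6 entered the test through all floxed libraries but only a part of the cKO libraries. Without adjustment, p was under 0.05 for 0 genes with a positive and 2 with a negative difference, beside 5.55% and 8.6% of all tested genes. In this list voom called 0, beside 1.78% higher and 2.41% lower over all tested genes. Mcm3 had 26.7, 26.2 and 26.0 RPKM in cKO and 31.5, 29.1 and 29.1 RPKM in floxed libraries (log2 difference -0.18, 95% interval -0.30 to -0.05, limma adjusted p = 0.199). Mcm7 averaged 20.3 ± 1.16 RPKM in cKO and 22.8 ± 0.734 RPKM in floxed libraries (log2 difference -0.16, limma adjusted p = 0.301). In both, and in Mcm2 (13.6 to 14.3 RPKM in cKO, 14.6 to 15.2 RPKM in floxed), the groups did not overlap. Over all tested genes, 12.7% had all cKO values below all floxed values. Mcm4, Mcm5 and Mcm6 overlapped between groups, at 93.8, 93.7 and 92.2% of floxed in cKO. The loading factor genes Cdc6 (0.958 ± 0.157 RPKM in cKO, 1.25 ± 0.260 RPKM in floxed) and Cdt1 (6.96 ± 0.680 RPKM in cKO and 7.33 ± 0.732 RPKM in floxed) overlapped as well. Reads of the 6 MCM genes summed to 554 to 566 RPM in cKO and 593 to 635 RPM in floxed libraries.

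Genes of the running fork and of chromatin copying gave no call, and Pcna and Slbp lay near 0 with narrow intervals. Pcna had 63.1, 55.8 and 59.9 RPKM in cKO and 54.6, 56.5 and 58.4 RPKM in floxed libraries, overlapping, with a log2 difference of 0.07 (95% interval -0.06 to 0.21). Slbp had a 95% interval of -0.13 to 0.12 in log2, on 5772 to 6532 reads per library. Of the helicase activators, Cdc45 averaged 5.35 ± 0.361 RPKM in cKO and 5.22 ± 0.426 RPKM in floxed libraries, and Gins2 7.33 ± 0.882 RPKM in cKO and 7.84 ± 1.01 RPKM in floxed, though 67.3% of the exon bases of Gins2 lie opposite those of Gse1. Clspn, which encodes the checkpoint mediator claspin, averaged 4.74 ± 0.568 RPKM in cKO and 5.51 ± 0.191 RPKM in floxed libraries.

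The clamp loader gene Rfc2 averaged 7.90 ± 0.858 RPKM in cKO and 8.90 ± 0.828 RPKM in floxed libraries. Rpa2, of the single-strand binding complex, averaged 6.19 ± 1.07 RPKM in cKO and 6.35 ± 0.518 RPKM in floxed, Chaf1b, of the histone chaperone CAF-1, 1.67 ± 0.109 RPKM in cKO and 1.66 ± 0.0955 RPKM in floxed, and Uhrf1, which brings DNA methyltransferase to copied DNA, 5.41 ± 1.26 RPKM in cKO and 6.90 ± 1.17 RPKM in floxed. Fen1, the flap nuclease, averaged 11.8 ± 1.21 RPKM in cKO and 12.2 ± 0.452 RPKM in floxed libraries, and 84.2% of its exon bases are opposite Tmem258 or Gm10143. In these 5 genes the groups overlapped.

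By count, 23 of the 24 S phase genes were tested, and limma called 0 higher and 0 lower. Without adjustment, p was under 0.05 for 0 genes with a positive and 4 with a negative difference (Rrm2, Mcm3, Ccne2 and Mcm7), beside 5.55% and 8.6% of all tested genes, while voom called 0 in either direction. The median log2 difference was -0.09, and the cKO values lay below all floxed values in 5 of the 23 (21.7%) and above in 0, beside 12.7% and 7.61% of all tested genes.

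**Figure D3:**
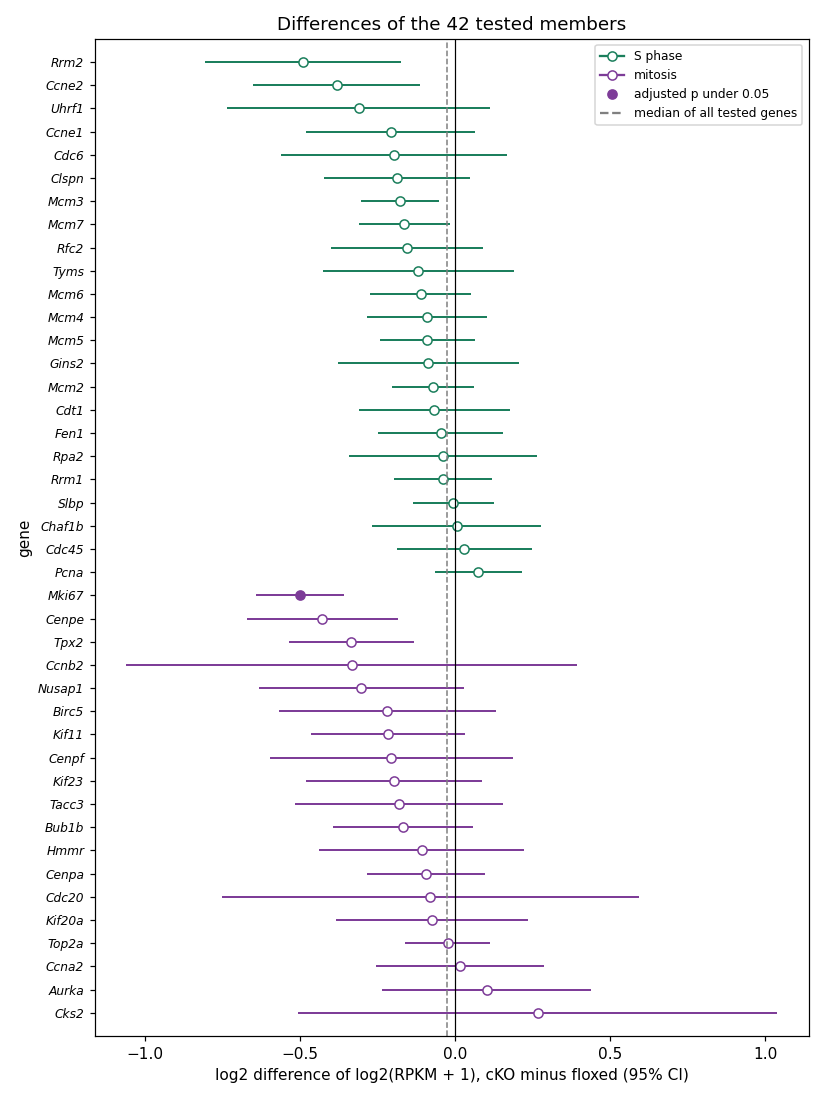
Log2 difference of the 42 tested genes, cKO minus floxed, with 95% confidence intervals, S phase in green above mitosis in purple; the filled point passed limma's adjusted p under 0.05 and the dashed line is the median of all tested genes, -0.03. Mki67 at -0.50 is the filled point, and the intervals of Ccnb2, Cdc20 and Cks2 are wide. Of the 42 points, 36 lie below 0 and 6 above, beside 57.3% of all tested genes below 0. Among the 36, Cdc6, Hmmr, Cenpf, Ccnb2 and Cdc20 reached 1 RPKM in more floxed than cKO libraries, so the filter leans towards their sign.

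Intervals were narrower for genes at higher levels. The 11 tested genes at 10 RPKM or more had a median SE of 0.06, the 19 between 3 and 10 RPKM one of 0.10 and the 12 under 3 RPKM one of 0.14. The spread over the 3 libraries of a group, as the SD over the mean, had a median of 4.39% in cKO and 3.70% in floxed libraries for the first, 10.6% in cKO and 8.16% in floxed for the next, and 16.1% in cKO and 16.9% in floxed for the last. No library stood at one end of its group throughout. Of the 19 mitotic genes, cKO replicate 1 was highest in its group for 10 and lowest for 5, and floxed replicate 3 highest for 9 and lowest for 3. Of the 23 S phase genes, cKO replicate 3 was lowest in its group for 13 and highest for 7.

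Summed over all 24 genes, S phase reads came to 1355, 1319 and 1332 RPM in cKO and 1430, 1408 and 1417 RPM in floxed libraries. The sum in cKO was 94.2% of that in floxed libraries. The 25 mitotic genes without Mki67 summed to 348, 335 and 345 RPM in cKO and 388, 383 and 395 RPM in floxed libraries, 88.1% of floxed. Mki67 alone took 209, 188 and 197 RPM in cKO and 276, 294 and 281 RPM in floxed libraries. In each of these 3 sums the cKO libraries lay below the floxed ones, and no test was made over a sum of genes chosen with results known. The sums of the group 1 ILC (95.2% of floxed), B cell, plasma cell and erythroid markers lay below as well. Those of the T cell, myeloid and dendritic cell markers overlapped, and those of the replication-dependent histone and immediate-early genes lay above.

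**Figure D4:**
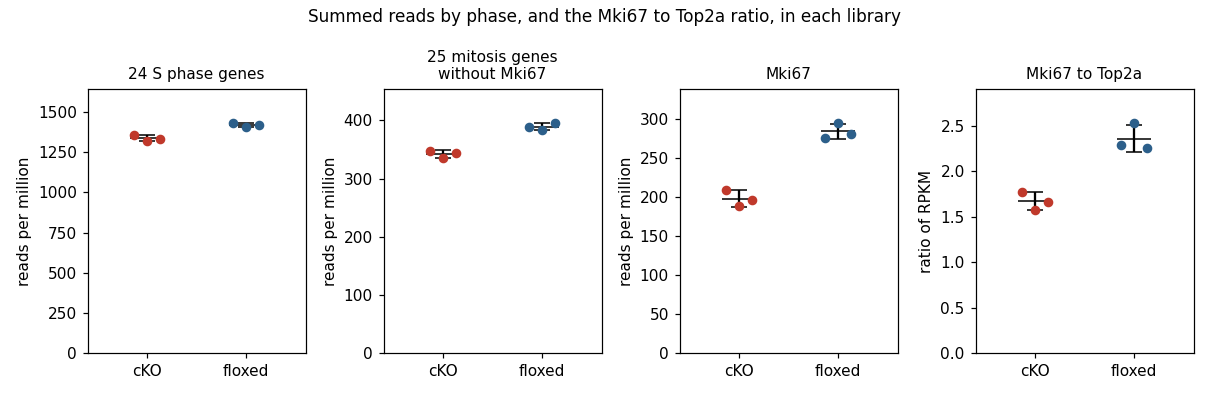
RPM summed over 24 S phase genes, over 25 mitotic genes without Mki67 and for Mki67, and the ratio of Mki67 to Top2a RPKM, in each of 3 cKO (red, left) and 3 floxed (blue, right) libraries; bars are the mean ± SD and axes start at 0. The sum in cKO is 94.2% of floxed for S phase and 88.1% for mitosis without Mki67, and the ratio is 1.58 to 1.78 in cKO and 2.26 to 2.53 in floxed libraries.

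Set against Mki67 within each library, most genes of the table were higher in cKO, in a measure that moves with Mki67 itself. In a limma fit over all genes of the log2 value minus that of Mki67, 72.9% of the 12730 other tested genes passed as higher in cKO, and of the 41 other members 24 did, 18 of 23 in S phase and 6 of 18 in mitosis. In this fit 0 members passed as lower. Rrm2 (relative log2 difference 0.01, limma adjusted p = 0.947), Cenpe (0.07, 0.577), Ccne2 (0.12, 0.447) and Tpx2 (0.17, 0.201) lay close to Mki67 and did not pass, while Top2a (0.48, 0.00296), Slbp (0.49, 0.00134) and Pcna (0.57, 0.00124) passed. The ratio of Mki67 to Cenpe was 6.21 to 7.87 in cKO and 6.38 to 7.22 in floxed libraries, overlapping, whereas that of Mki67 to Pcna was 0.326 to 0.335 in cKO and 0.479 to 0.517 in floxed libraries.

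Other genes of DNA replication and mitosis, in 11 lists of 191 genes found in the table, mostly gave no call. Of 145 tested, limma called 1 higher (Cdkn1c) and 0 lower, which left 144 not called, beside 0.652% higher and 0.668% lower over all tested genes. Without adjustment, p was under 0.05 for 4 genes with a positive and 15 with a negative difference, beside 5.55% and 8.6% of all tested genes, while voom called 3 higher and 7 lower, beside 1.78% and 2.41%. Their median log2 difference was -0.07, and 28 (19.3%) had all cKO values below all floxed values while 5 had them above, beside 12.7% and 7.61% of all tested genes. Cdkn1c, which encodes the CDK inhibitor p57, had 2.62, 3.30 and 3.38 RPKM in cKO and 1.06, 1.22 and 1.13 RPKM in floxed libraries (log2 difference 0.94, limma adjusted p = 0.0230). Its call was lost without cKO replicate 2 or 3 or without any 1 of the 3 floxed libraries (adjusted p 0.0798 to 0.105), and 7 of 14 alternatives kept it. Gm44732 lies opposite 30.7% of the exon bases of Cdkn1c, and whether counting used strand is not known here.

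By list, 17 of 19 further genes of origin complexes and firing were tested (0 rose, 0 fell; median -0.14), 23 of 26 of polymerases and the fork (0 and 0; -0.10), 20 of 20 of nucleotide supply (0 and 0; -0.10) and 12 of 13 of chromatin duplication (0 and 0; -0.06). In mitosis, 9 of 21 genes of the kinetochore (0 and 0; median -0.21), 12 of 23 of motors and cytokinesis (0 and 0; -0.09), 8 of 11 of condensin and separation (0 and 0; -0.05) and 10 of 18 of mitotic entry (0 and 0; -0.06) were tested. In these 8 lists together, 1 gene above 0 and 10 below 0 had p under 0.05 without adjustment, while voom called 0 higher and 4 lower, beside 5.55% and 8.6% of all tested genes without adjustment and 1.78% and 2.41% with voom. Dnmt1, the maintenance DNA methyltransferase, was among the 4, with 43.9 ± 1.12 RPKM in cKO and 49.7 ± 2.03 RPKM in floxed libraries (limma adjusted p = 0.181, voom adjusted p = 0.0231).

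Of regulators, 11 of 13 E2F and pocket protein genes (0 rose, 0 fell; median -0.04), 10 of 14 CDK inhibitor and cyclin D genes (1 and 0; -0.06) and 13 of 13 genes of the lamina and proliferation-linked chromatin (0 and 0; -0.03) were tested. Rbl2, which encodes the pocket protein p130 of the DREAM complex, had 27.2, 27.5 and 27.2 RPKM in cKO and 32.5, 36.0 and 33.5 RPKM in floxed libraries. The groups lay apart (log2 difference -0.30), limma's adjusted p was 0.0568 and that of voom 0.000364. Aktip and Gm45464 lie opposite 21.0% of the exon bases of Rbl2, and whether counting used strand is not known here. E2f1 averaged 1.49 ± 0.107 RPKM in cKO and 2.28 ± 0.343 RPKM in floxed libraries (limma adjusted p = 0.240). Ccnd2, the D-type cyclin gene with the highest level here, averaged 16.1 ± 0.842 RPKM in cKO and 19.4 ± 1.37 RPKM in floxed libraries (limma adjusted p = 0.191), and Cdkn1b, which encodes p27, 23.2 ± 1.31 RPKM in cKO and 24.7 ± 2.09 RPKM in floxed (0.688).

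Histone genes of the replication-dependent clusters mostly lay above 0, 10 of the 12 tested among 57 found, whereas 57.3% of all tested genes lay below 0. Their mRNAs mostly lack a poly(A) tail, and mRNA libraries hold little of them. Of the 12 tested, limma called 1 higher and 0 lower, beside 0.652% and 0.668% of all tested genes. Without adjustment, 5 had p under 0.05, all above 0, beside 5.55% higher and 8.6% lower over all tested genes. With voom, 1 was called higher and 0 lower, beside 1.78% and 2.41%. The 57 genes summed to 96.7 to 101 RPM in cKO and 66.3 to 73.4 RPM in floxed libraries. Hist1h1c, a linker histone gene, was the 1 that rose, with 30.3 ± 0.912 RPKM in cKO and 20.2 ± 0.520 RPKM in floxed libraries (log2 difference 0.56, limma adjusted p = 0.00506). The call held in 14 of 15 alternatives, each omission of 1 library among them, and was lost in 1 (adjusted p = 0.0502).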

How the data were processed

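The members and gene lists were chosen with earlier results of these data known. The deposited table gives RPKM per gene and library, made by the authors, with exon coordinates and gene lengths. The submitters' processing notes name the build mm10 and the tools edgeR 3.12.1, Subread 1.5.1, featureCounts and STAR 2.5.3a. Their roles, the strand setting and any removal of duplicates are not known from the sources used here. Further members also have exon bases opposite another gene, among them Ube2c (22.8%, Tnnc2), Rfc2 (15.1%, Lat2) and Ccna2 (12.5%, Exosc9). RNA was extracted with TRIzol for a stranded mRNA kit, per the labels' protocols. The 6 value columns were matched to samples by name and number, and 0 other value columns exist. RPKM times length fell on whole multiples of 1 read for 100% of values within 0.001 reads, which gave the recovered reads.

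Values were tested on log2(RPKM + 1) with limma 3.58.1 in R 4.3.3 (lmFit, eBayes with a trend), two-sided, on all 6 libraries and no covariate, for genes that reached 1 RPKM in 3 libraries or more, and called at a Benjamini-Hochberg adjusted p under 0.05. The scale understates changes of low genes. The fits were tested on simulated data. Alternatives were another pseudocount, filter, scaling or variance model, limma voom on recovered reads, a replicate block and leaving out each library. The fit relative to Mki67 was added after the data were seen. All 50 members may be named; of other lists, at most 6 passing genes by p and 3 others by level. Dnmt1 and E2f1 fall outside this rule and were chosen after their values were seen. Promoters are from RefSeq, GRCm38.p6.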

Additional observations from a re-analysis of the deposited data

How the results depend on the processing

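Of 594 refits of the 41 tested members other than Mki67, 568 kept direction and side of the threshold, 1 passed (Cenpe with voom) and 25, in 11 members that were not called, changed sign. Those were Slbp (0.025 with median-of-ratios factors, 0.00097 with quantile normalization), Top2a (0.0039 and 0.0027), Rrm1 (0.0042) and Rpa2 (0.0072) with quantile normalization, and, over the omissions of 1 library, Cdc45 (-0.017 to 0.082), Gins2 (-0.18 to 0.0058), Rpa2 (-0.14 to 0.076), Fen1 (-0.12 to 0.011), Chaf1b (-0.018 to 0.039), Slbp (-0.035 to 0.033), Ccna2 (-0.040 to 0.12), Cks2 (-0.052 to 0.44) and Cdc20 (-0.29 to 0.16). Mki67 kept its direction in all 15 refits (-0.54 to -0.47 over the omissions of 1 library) but missed the threshold without the variance trend (-0.50, adjusted p = 0.0502). The cause was not tested.

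The count of all genes called was 36 lower and 44 higher without a filter, 35 and 39 without the trend, 307 and 226 with voom, and 27 to 39 and 33 to 50 over the omissions of 1 library. Mitotic genes called lower numbered 0 without the trend, 2 with voom and 0 to 1 over the omissions. Other pathway genes called higher numbered 0 without a filter and at 5 RPKM, where Cdkn1c was not tested, 3 with voom and 0 to 1 over the omissions; those called lower numbered 1 at 5 RPKM and 7 with voom. The S phase median was -0.061 with median-of-ratios factors, -0.073 with quantile normalization and -0.13 to -0.078 over the omissions; the mitotic median was -0.10 at 5 RPKM, -0.13 with quantile normalization and -0.19 to -0.13 over the omissions. The Mki67 to Top2a ratio moved by less than its spread (-0.54 to -0.44 over the omissions).

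The replicate numbers gave no sign of pairing: deviations from the group means correlated at -0.03, 0.01 and 0.04 between libraries with the same number, and cKO replicate 1 correlated best with floxed replicate 2 (0.09). With 3 libraries per group, whose deviations are tied to each other by the group mean, these correlations cannot decide whether samples were paired. With the replicate block, 23 genes were lower and 37 higher, 0 mitotic genes were lower and 0 other pathway genes higher, Mki67 was at -0.50 (adjusted p = 0.0876), Hist1h1c at 0.56 (adjusted p = 0.0502) and the Mki67 to Top2a ratio at -0.50. Cdk1 (45 to 138 reads per library), Ccnb1 (20 to 34) and Plk1 (30 to 68) rest on few reads and were not tested.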
